A study of Mus musculus with 76 samples.

Results

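The proteasome subunit genes of the mouse were taken as every row of the expression table whose symbol is Psma, Psmb, Psmc, Psmd, Psme, Psmf or Psmg followed by a number, without the copies named as pseudogenes. The rule uses names only, no measured value. It found 49 of the 37980 genes in the table. Values are FPKM, the sequenced fragments of a gene relative to its length and to the size of the library, so levels of different genes can be compared.

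The levels come from RNA sequencing of 75 distinct libraries of 1000 sorted cells each, in 24 groups of 2 to 4 libraries, all from C57BL/6 mice. The natural groups from bone marrow are hematopoietic stem cells (HSC), progenitors called multipotent (MPP), early T lineage progenitors (BM ETP), pro/pre-B cells and mature B, T and myeloid cells. Those from thymus are thymic ETP, the double negative stages DN1, DN2, DN3 and DN4, the double positive stage (DP) and the single positive stages CD4 SP and CD8 SP, which makes 15 natural groups. The 9 induced groups, from BM ETP to CD8 SP, were sorted from the marrow or thymus of sublethally irradiated recipients of pro/pre-B cells that had been infected with a virus carrying the homeobox gene Hoxb5. A host irradiated this way keeps some blood-forming cells of its own. No induced group has a partner that went through transplantation without Hoxb5, so the virus, the transplantation and the source cell cannot be told apart in any induced against natural value. The labels do not say which libraries came from different animals, and p-values then measure only the spread between libraries.

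The proteasome degrades proteins tagged with ubiquitin. Its 20S core is a barrel with outer rings of alpha subunits and inner rings of beta subunits, of which Psmb6, Psmb7 and Psmb5 cut peptide bonds. The 19S cap on the barrel holds a ring of ATPases (Psmc1 to Psmc6), which unfold substrates, and non-ATPase subunits (Psmd genes), which bind and remove ubiquitin. In immune cells and under interferon gamma, Psmb9, Psmb10 and Psmb8 can replace Psmb6, Psmb7 and Psmb5, which gives the immunoproteasome, a form that makes peptides suited to major histocompatibility complex (MHC) class I. Psme1 and Psme2 form the PA28 activator, which interferon also raises. In cortical epithelial cells of the thymus, Psmb11 takes the place of Psmb5 or Psmb8. Psmb9 was not analysed here.

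Sequences upstream of the genes are shown for 3 members on which the results turn: a constitutive catalytic subunit, its immune counterpart and an activator. Each runs 5′ to 3′ on the gene's own strand, from 250 bases before to 20 bases after the RefSeq start site, build GRCm38.p6, which is not the build of the expression table. They lie at chr14:54617976-54618245 on the minus strand (Psmb5), chr17:34197945-34198214 on the plus strand (Psmb8) and chr14:55578244-55578513 on the plus strand (Psme1). Capitals mark the antioxidant response core TGACNNNGC in Psmb5, the interferon-gamma activated site core TTCNNNGAA in Psmb8 and, in Psme1, the core of the interferon-stimulated response element (GAAA, any 2 bases, GAAA), which lies on the other strand.
Psmb5: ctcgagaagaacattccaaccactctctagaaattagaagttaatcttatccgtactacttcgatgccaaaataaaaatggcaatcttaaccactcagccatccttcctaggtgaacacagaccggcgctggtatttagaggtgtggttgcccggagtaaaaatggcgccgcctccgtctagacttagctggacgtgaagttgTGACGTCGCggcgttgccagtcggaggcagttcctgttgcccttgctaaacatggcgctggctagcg
Psmb8: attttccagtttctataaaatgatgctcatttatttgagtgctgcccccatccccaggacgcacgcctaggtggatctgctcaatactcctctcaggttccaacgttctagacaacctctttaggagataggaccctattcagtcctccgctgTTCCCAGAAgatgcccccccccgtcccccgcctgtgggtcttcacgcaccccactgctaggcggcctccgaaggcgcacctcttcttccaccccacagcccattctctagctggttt
Psme1: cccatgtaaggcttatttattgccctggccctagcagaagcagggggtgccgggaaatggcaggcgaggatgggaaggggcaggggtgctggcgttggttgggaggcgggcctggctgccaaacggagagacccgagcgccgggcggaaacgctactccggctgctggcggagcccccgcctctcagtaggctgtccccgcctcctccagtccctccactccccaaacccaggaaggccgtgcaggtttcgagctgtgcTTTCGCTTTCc
The motif starts 47 bases before the start site in Psmb5, 97 bases before it in Psmb8 and 9 bases after it in Psme1.

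Of the 49 members, 41 had a RefSeq promoter, with 44 start sites in all, searched on both strands over 300 bases (250 before to 50 after the start). The interferon-stimulated core stood in 11.4% of the member promoters (5 members, among them Psme1) and in 3.44% of all 32851 promoters. The interferon-gamma core stood in 6.82% of member promoters (Psmb8, Psmd2 and Psmg1) against 8.3% of all, and the antioxidant core in 13.6% (6 members, Psmb5 and Psmb6 among them) against 12.4%. The CCAAT box, searched as CCAAT, stood in 31.8% (14 members) against 37.4%. These are matches of letters and show no binding.

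The depth, placed from low values of 4285 genes with a single transcript, was 0.972 to 11.3 fragments per FPKM and kilobase (median 4.25), lowest in mature myeloid cells. The FPKM of all genes summed to between 667700 and 2004000 in a library. Hoxb5, the gene the virus carries, was above 0 in every induced library, with group means from 0.0678 FPKM in induced DN2 to 2.735 in induced thymic ETP. In the natural thymic groups it was listed at 0 except in 1 of the 4 DP libraries, at 0.0891 FPKM, while HSC had 4.503 ± 1.483 FPKM (SD, n = 4). In BM ETP the levels overlapped, at 0.185 to 0.404 FPKM in natural and 0.0976 to 0.618 in induced libraries. Among pro/pre-B cells, replicates 1 and 3 were identical and were counted as 1 sample. The 8 T lineage markers summed to 6384 to 7406 FPKM in DP, but to 5.665 to 10.03 in natural BM ETP (Cd3e and Cd3g at 0) and 37.39 to 40.77 in induced BM ETP (6 of the 8 at 0). Induced BM ETP held B lineage markers (Cd79a, Igll1 and others, 8 in all) at a summed 7641 to 8030 FPKM, close to the 7914 to 8625 of pro/pre-B cells, while natural BM ETP held 68.7 to 86.95. Natural BM ETP held 7 myeloid markers at a summed 18480 to 30460 FPKM, against 1209 to 1709 in induced BM ETP. One of the pro/pre-B libraries also held myeloid markers (29.39 to 4609 over the group). Natural DN1 held 6 natural killer and cytotoxic markers at a summed 4680 to 5450 FPKM and 7 dendritic markers at 494.4 to 684.3, against 420.0 to 634.4 and 21.59 to 69.01 in induced DN1. In sorted bulk samples, fewer cells of a type and less RNA per cell cannot be told apart.

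Nearly all members were expressed in every group. In the model, 48 of the 49 passed the filter of at least 1 FPKM in at least 2 libraries. Their means over the 75 libraries ran from 1.241 to 603.4 FPKM with a median of 106.9, and 44 had a mean of at least 20 FPKM. The 14 constitutive core subunits stood above the cap subunits in all 24 groups by their medians, and the median of the immune pair Psmb8 and Psmb10 stood above that of the core in 17 of the 24. A median of 2 genes is their mean, so it does not show that both lay above the core. In natural BM ETP, for example, Psmb10 was at a mean of 334 FPKM and the median core subunit at 445. The median core subunit was at 504 ± 44.1 FPKM in natural DN4 (SD, n = 3) and the median of the 17 cap subunits at 118 ± 8.72 in the same libraries. The 4 core assembly chaperones, Psmg1 to Psmg4, had a median of 112 FPKM in DN4, and the 3 cap chaperones, Psmd5, Psmd9 and Psmd10, one of 27.84.

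The members reached their highest mean most often in DN4, the stage after beta selection at which thymocytes divide. With the shallow myeloid libraries set aside, natural DN4 was the highest group for 13 of 48 members and induced DN4 for 8. The share of all genes with their highest or lowest mean in a given group was not taken, so these counts have no background. Among the alpha ring genes, 5 of 7 were highest in natural DN4 (Psma2, Psma3, Psma4, Psma5 and Psma7), and among the ATPases 4 of 6 were highest in induced DN4 (Psmc1, Psmc2, Psmc5 and Psmc6). The lowest group was most often mature T cells or induced DP, with 6 members each. From the lowest to the highest group mean, the median member differed 2.91-fold over the 47 for which a fold could be taken, 35 of them between 2-fold and 4-fold. Psmb1, a beta subunit, had the narrowest range and went from 361 ± 17.9 FPKM in induced thymic ETP to 655 ± 17.2 in induced BM ETP, 1.81-fold. Among the constitutive and immune core subunits, with the testis subunit Psma8 set aside, Psmb10 had the widest range, from 58.3 ± 23.0 FPKM in induced DP to 334 ± 28.0 in natural BM ETP, 5.73-fold.

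**Figure D1:**
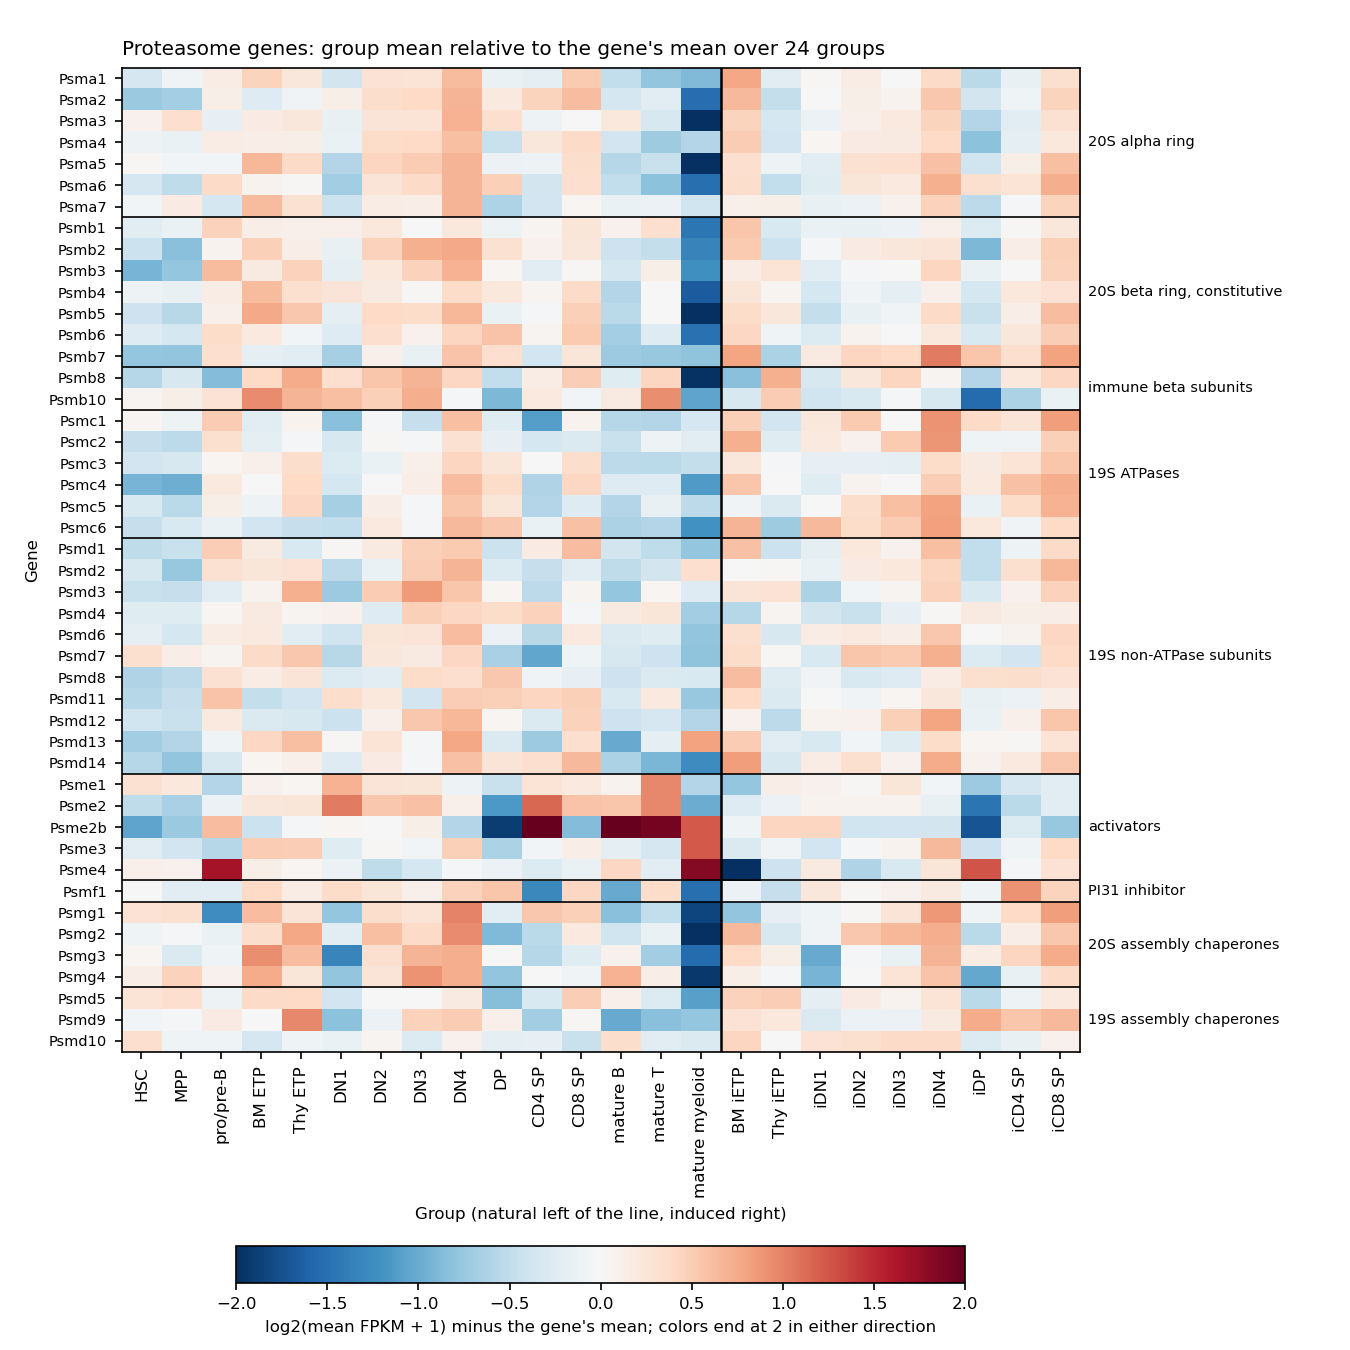
Group means of 46 proteasome genes (rows, by role) in the 24 groups (columns), each as the difference in log2(FPKM + 1) from that gene's mean over groups. Most core and cap genes share a high column in DN4 and induced DN4 and a low one in mature cells, but not in these groups only. The median core subunit was at 419.2 FPKM in induced DN4, 448.2 in induced CD8 SP, 445.1 in natural BM ETP and 429.7 in induced BM ETP. It was at 227.9 in induced DP, 234.9 in mature B cells and 239.7 in mature T cells. Psmb8, Psmb10, Psme1, Psme2 and Psme2b vary in another order.

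Across the 23 groups without myeloid cells, the level of the 14 core genes was taken as their median in each library, averaged over the group. It was most closely tracked by Psma1 (Pearson r = 0.93), Psma5 (0.92), Psmb2 (0.89) and Psmb5 (0.88), which are themselves part of that median. Of the genes outside it, Psmc3ip (0.84), Psmd1 (0.82), Psmd6 (0.81) and Psmd2 (0.81) stood closest. The values were under 0.15 for Psmd4 (0.016), a ubiquitin receptor of the cap, for the cap chaperone Psmd10 (0.035) and for Psme1 (-0.28), Psme4 (-0.28), Psme2b (-0.26), Psme2 (0.10) and Psmb10 (0.13). The same held for Psma8 (-0.22) and Psmb11 (-0.37). These r describe group means that share libraries and depth, and carry no test.

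Psma8, the alpha subunit of the testis, was at 12.79, 8.257, 24.69 and 17.63 FPKM in the HSC libraries and at 2.727, 6.204, 5.95 and 6.241 in MPP. It was listed at 0 in every other group except BM ETP, where it reached 0.898, and 1 natural DN2 library, at 7.15. The fall from HSC to MPP was -1.37 ± 0.28 on the log2(FPKM + 1) scale (limma, adjusted p = 0.0003), and the libraries did not overlap. It was the only one of 48 members called between these stages, where 8.13% of all 17416 genes were called. Psmb2 was also called without MPP replicate 2. With a pseudocount of 0.1 the limma adjusted p was 0.134. Psmb11, the thymic epithelial subunit, did not exceed 0.514 FPKM in any library and was above 0 in 37. Of the 8 other genes of a thymic stroma list, Foxn1, the defining factor of thymic epithelium, was at 0 in every library, Krt5 reached 0.121 FPKM and Krt8 3.991. The other 5 were higher at their maximum: Ctsl reached 329.2 FPKM, Epcam 56.77, Ccl25 48.9, Prss16 45.1 and Ly75 13.45. Psmc3ip matches the name rule but encodes a partner of meiotic recombinases, not a proteasome subunit, and it stayed in the counts. Psme2b is a near copy of Psme2 without introns, so the reads of both can be exchanged and its values are uncertain.

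From DN3 to DN4, 6 members rose and 1 fell, of 48 tested (limma, adjusted p under 0.05), where 6.72% of all genes and 11.1% of the 4877 genes with a mean of at least 20 FPKM (expressed genes) were called. The ATPase Psmc1 stood at 70.3 and 40.4 FPKM in the DN3 libraries and at 123.5, 109 and 117 in DN4. This rise was 1.11 ± 0.28 (log2, limma adjusted p = 0.0063), and no DN3 library reached DN4. Psmd11, a cap subunit, rose by 0.99 ± 0.24 and Psmb7, the subunit with trypsin-like activity, by 0.71 ± 0.21, a call that held in 1 of the 5 fits without a single library. The immune subunit Psmb10 went the other way, from 299.97 and 274 FPKM to 171, 181 and 157, a fall of -0.76 ± 0.22 (limma, adjusted p = 0.026). These calls rest on few libraries: without DN3 replicate 2 none of these 7 calls held and Psmc5 alone was called (Psmc1, Psmd11 and Psmb7 had limma adjusted p = 0.335, 0.706 and 0.148), without DN4 replicate 1 or 2 the count was 3, without DN4 replicate 3 it was 4, and without DN3 replicate 1 it was 4, of which 3 were among the 7. Among these fits the call of Psmb10 held only without DN4 replicate 2 (limma, adjusted p = 0.0601 to 0.141 without each of the others). With quantile normalization 2 rose and 4 fell, 3 of them among the 7. The 16 genes of a proliferation list gave 9 rises and no fall over the same step.

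From DN4 to DP a majority of the proteasome genes fell. Of 48 members, 27 fell and none rose (limma), where 24.6% of all genes and 44.3% of expressed genes were called in either direction. The median member changed by -0.58 on the log2 scale, and the median expressed gene by -0.07. Psmg2 and Psmg4, chaperones of core assembly, changed most: Psmg2 stood at 129.7, 152 and 190.1 FPKM in DN4 and at 16.3, 67.4, 34.4 and 56.6 in DP. All 4 DP libraries lay below all DN4 libraries, and the fall was -1.99 ± 0.34 (limma, adjusted p = 5.4e-06). Its fellow chaperone Psmg4 fell by 1.61 and Psmg1 by 1.29, so that 3 of the 4 were called. Psme2b fell by 1.33. Psma7, an alpha ring gene, went from 483, 529 and 548 FPKM to 267, 193, 210.5 and 179 (-1.30 ± 0.14, limma adjusted p = 6.2e-11).

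By role, the DP fall took in 5 of 7 alpha genes, 3 of 7 constitutive beta genes, 2 of 6 ATPases, 7 of 11 other cap subunits, both immune subunits and 4 of 5 activators. The cap subunits Psmd7 (-1.14) and Psmd13 (-1.10) and the alpha gene Psma4 (-1.08) were among them. Psmb6, the constitutive subunit with caspase-like activity, was not called: it stood at 699, 534 and 517 FPKM in DN4 and at 843, 620, 565 and 542 in DP (0.13 ± 0.14, limma adjusted p = 0.64). Psmb7 (-0.27 ± 0.17), Psmb1 (-0.31 ± 0.13) and Psma6 (-0.22 ± 0.13) were not called either. Leaving out single libraries gave 22 to 28 calls, the fewest without DP replicate 2. Psme1, among the 4 activators, lost its call in 7 alternatives (limma, adjusted p = 0.0699 to 0.205), equal totals and quantile normalization among them. Pomp, the maturation factor of the core, fell from 269 ± 11.9 to 209 ± 30.5 FPKM (-0.37 ± 0.14, limma adjusted p = 0.040).

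Both single positive stages had higher immune subunits and activators than DP in Psme1, Psme2, Psme3, Psmb8 and Psmb10. In natural CD8 SP 18 of 48 members rose and 1 fell against DP, where 23.9% of all genes and 40.9% of expressed genes were called. In natural CD4 SP 9 rose and 13 fell, where 26.7% of all and 43.3% of expressed genes were called. Both counts are near the expressed share. The median member changed by 0.27 in CD8 SP and by -0.18 in CD4 SP, and the median expressed gene by -0.08 and -0.03 (log2). Scaling each library to an equal total gave 7 rises and 16 falls in CD4 SP, quantile normalization 12 and 12, library weights 6 and 8, and a fit of only the groups compared 5 and 4. Both comparisons use the same DP libraries.

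Psme2, the beta part of PA28, changed most of the members other than its retrocopy. It stood at 193, 145, 132 and 82.2 FPKM in DP, at 672, 661.5 and 706 in CD4 SP and at 488, 432 and 454.5 in CD8 SP. No DP library reached either single positive group, and the rises were 2.35 ± 0.17 and 1.78 ± 0.17 (limma, adjusted p = 2.3e-17 and 8.9e-13). Its retrocopy Psme2b rose by 4.04 ± 0.29 in CD4 SP, from a range of 1.53 to 3.97 FPKM to 42.1 to 62.8, and by 1.05 ± 0.29 in CD8 SP. Psmb10 rose by 1.03 ± 0.19 and 0.86 ± 0.19, and Psmb8, the immune chymotrypsin-like subunit, by 0.65 ± 0.11 and 1.00 ± 0.11. Psme1 rose by 0.74 ± 0.12 and 0.65 ± 0.12, and Psme3, the nuclear activator PA28 gamma, by 0.55 ± 0.19 and 0.77 ± 0.19. The call of Psme3 in CD4 SP was lost without CD4 SP replicate 2 or 3 or DP replicate 2 (limma, adjusted p = 0.195, 0.104 and 0.0638), and also with equal totals, library weights or only the groups compared (0.138, 0.263 and 0.269).

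In CD4 SP 4 of 6 ATPases fell against DP, and none fell in CD8 SP; the difference between the 2 stages was not tested. Psmc4 stood at 175.5, 158, 158 and 159.7 FPKM in DP, at 114, 34.3 and 101 in CD4 SP and at 179, 135 and 193 in CD8 SP. The fall in CD4 SP was -1.13 ± 0.21 (limma, adjusted p = 1.4e-05), and CD4 SP replicate 2 was far below the other 2. Psmf1, which encodes the inhibitor PI31, fell from 71.3, 51.0, 28.2 and 75.7 FPKM to 20.2, 9.46 and 15.5, -1.81 ± 0.28 (limma, adjusted p = 6.5e-07), with no overlap. Psma6, an alpha gene, fell by 0.85 and Psmb7 by 0.70. Psmc3ip, the meiotic gene, fell by 1.66. In CD8 SP, 5 of 7 alpha genes rose, among them Psma4 (0.85), Psma1 (0.67) and Psma7 (0.66). The cap chaperone Psmd5 rose by 1.62 ± 0.35, though its DP libraries ran from 11.5 to 52.9 FPKM. Psmg2 rose by 1.23 ± 0.34, to 81.2, 119 and 78.6 FPKM, and lost the call without DP replicate 1 (limma, adjusted p = 0.0656). Psmd8, a cap subunit, was the 1 member that fell in CD8 SP, from 204 to 261 FPKM in DP to 140.0 to 154, -0.70 ± 0.12 (limma, adjusted p = 2.6e-06). It also fell in CD4 SP, by 0.63.

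The class I peptide pathway changed beside the immune subunits. Of its 12 listed genes, 7 fell and 1 rose from DN4 to DP, 10 rose and 1 fell from DP to CD4 SP, and 8 rose and none fell from DP to CD8 SP. The shares of expressed genes called were 44.3%, 43.3% and 40.9% in the same order. H2-K1, a class I heavy chain, stood at 406 ± 30.2 FPKM in DN4 (n = 3), 83.7 ± 20.4 in DP (n = 4), 2578 ± 383 in CD4 SP (n = 3) and 819 ± 134 in CD8 SP (n = 3). Nlrc5, the transactivator of class I genes, stood at 10.3 ± 2.32, 4.01 ± 4.201, 195 ± 12.0 and 49.9 ± 13.6 FPKM in the same order. Of 16 interferon response genes, 13 rose and none fell from DP to CD4 SP. Natural killer and cytotoxic markers moved in the same direction, from a summed 0 to 12.8 FPKM in DP to 223.3 to 352.3 in CD4 SP and 349.4 to 468.1 in CD8 SP, as did dendritic markers, from 7.955 to 45.9 to 45.97 to 216.6 and 52.45 to 353.4. Their part in the rise of the immune subunits was not tested.

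In the B lineage, mature cells had less of most standard subunits and more Psmb8, Psme1 and Psme2 than pro/pre-B cells. Of 48 members 28 fell and 4 rose (limma), where 25.0% of all genes and 38.9% of expressed genes were called, with a median of -0.52 (log2) against -0.07 for expressed genes. All 7 constitutive beta genes fell, with 5 of 7 alpha genes, 5 of 6 ATPases and 7 of 11 other cap subunits. Psmb7 stood at 227, 210.2 and 213 FPKM in pro/pre-B cells and at 127, 112, 69.9 and 103 in mature B cells (-1.10 ± 0.17, limma adjusted p = 8.3e-07). Psmb6 fell by 1.05 and Psmb3 by 1.00, and no mature B library reached a pro/pre-B library in any of these 3. Psme4, the nuclear activator PA200, fell from 29.6, 42.5 and 49.0 FPKM to 21.9, 14.7, 14.8 and 14.3 (-1.24 ± 0.31, limma adjusted p = 0.0012). Psmd9, a cap chaperone, stood at 11.6, 14.9 and 13.6 FPKM against 7.91, 6.34, 6.24 and 0.89, a fall of -1.39 ± 0.36 that was not called without mature B replicate 4 (limma, adjusted p = 0.0524). Psmc3ip fell by 1.69.

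The 4 rises in mature B cells were Psme2b (2.07 ± 0.29), Psme2 (0.66 ± 0.17), Psme1 (0.66 ± 0.12) and Psmb8 (0.63 ± 0.11). Psmb8 stood at 309, 297.5 and 315.5 FPKM in pro/pre-B cells and at 426, 547, 454 and 489 in mature B cells, with no overlap (limma, adjusted p = 3.3e-06). Psme1, Psme2 and Psmb8 lost these calls when each library was scaled to an equal total (limma, adjusted p = 0.082, 0.19 and 0.063). That scaling moved the median expressed gene of this comparison from -0.07 to -0.39. Among 16 proliferation genes, 15 fell and 1 rose, and 7 of 12 class I genes rose and none fell.

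The balance of immune to constitutive subunits can be read as a ratio of FPKM within each library, in which a library's scaling cancels. Psmb8 stood below Psmb5 in 2 groups only: pro/pre-B cells, with a ratio of 0.903 ± 0.065 (n = 3), and induced BM ETP, with 0.766 ± 0.015 (n = 2). The ratio was 1.38 ± 0.25 in DP, 1.38 ± 0.10 in natural BM ETP and 2.59 ± 0.070 in natural DN1, the highest natural thymic value. In mature B cells it was 2.29 ± 0.59, with no library below 1.61. The ratio of Psmb10 to Psmb7 spread further, from 0.230 ± 0.084 in induced DP to 3.496 ± 1.86 in mature T cells, whose libraries ran from 2.29 to 5.64. Along natural thymocytes it went from 2.45 ± 0.21 in DN1 to 1.34 ± 0.17 in DN2, 1.86 ± 0.12 in DN3, 0.667 ± 0.023 in DN4 and 0.456 ± 0.158 in DP, where DN4 and DP did not overlap. Psme2 to Psme1 was lowest in MPP (0.381 ± 0.014) and HSC (0.398 ± 0.075) and highest in natural CD4 SP (1.27 ± 0.043). With 2 to 4 libraries a group, an exact permutation test of most pairs cannot pass 0.05, and none is given.

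**Figure D2:**
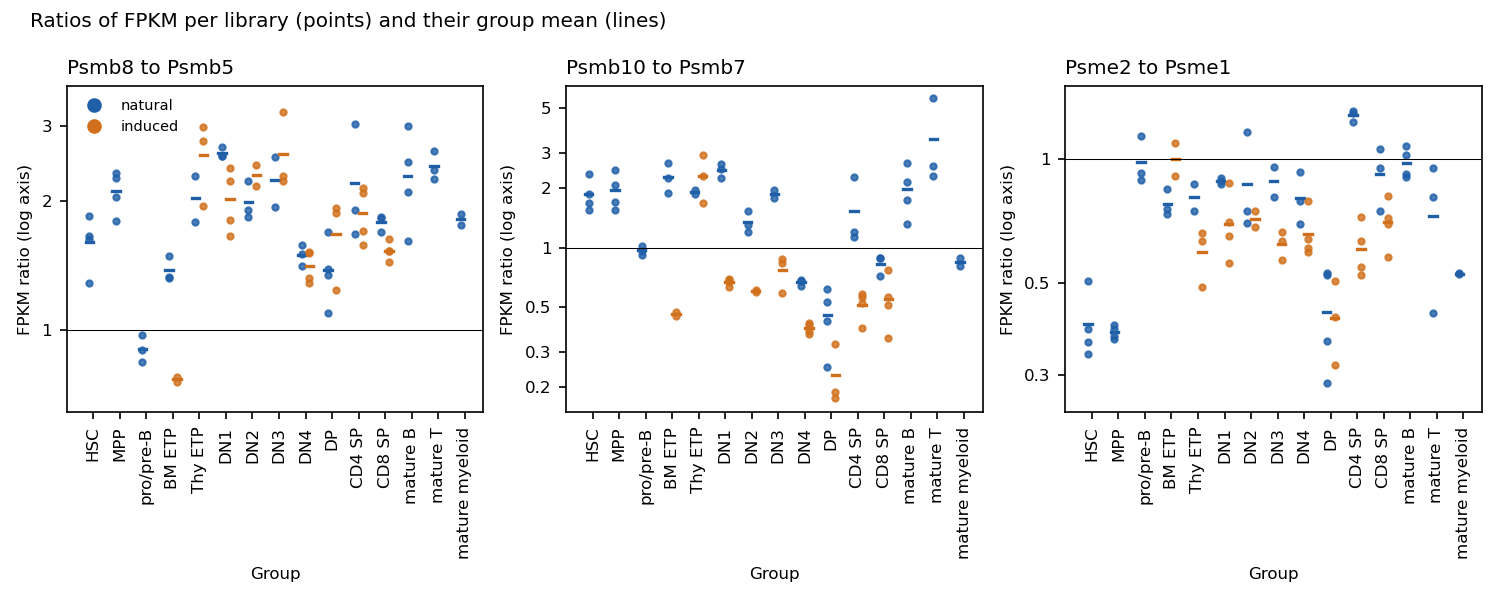
Ratio of FPKM within each library for Psmb8 to Psmb5, Psmb10 to Psmb7 and Psme2 to Psme1 (log axes, line at 1), by group, with natural libraries in blue and induced libraries in orange. The induced libraries lie below the natural ones for Psmb10 to Psmb7 at 6 of the 9 stages and overlap them at the other 3.

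Averaged over the 9 stages, induced cells had less Psmb8, Psmb10, Psme1, Psme2 and some constitutive core genes. They had more of a few cap ATPases and of Psmb7. Of 48 members 7 were higher and 10 lower (limma), where 29.9% of all genes and 44.7% of expressed genes were called. The median member differed by -0.09 and the median expressed gene by 0.03. Psmb10 (-0.65 ± 0.07), Psme2 (-0.65 ± 0.06), Psmb8 (-0.33 ± 0.04) and Psme1 (-0.32 ± 0.04) were the 4 lowest. The other lower members were the constitutive core genes Psma2, Psma4, Psmb2, Psmb4 and Psmb5 and the cap subunit Psmd4. Among them Psmb5 is the constitutive counterpart of Psmb8. The calls of Psma2, Psma4 and Psmb5 were lost with equal totals. Psmc1 (0.60 ± 0.08), Psmb7 (0.48 ± 0.06) and Psmc2 (0.40 ± 0.06) were the 3 highest (limma, adjusted p = 6e-08, 1.5e-08 and 2.7e-07). Scaling to an equal total, which moves the median expressed gene to 0.14, gave 13 higher and 7 lower members.

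**Figure D3:**
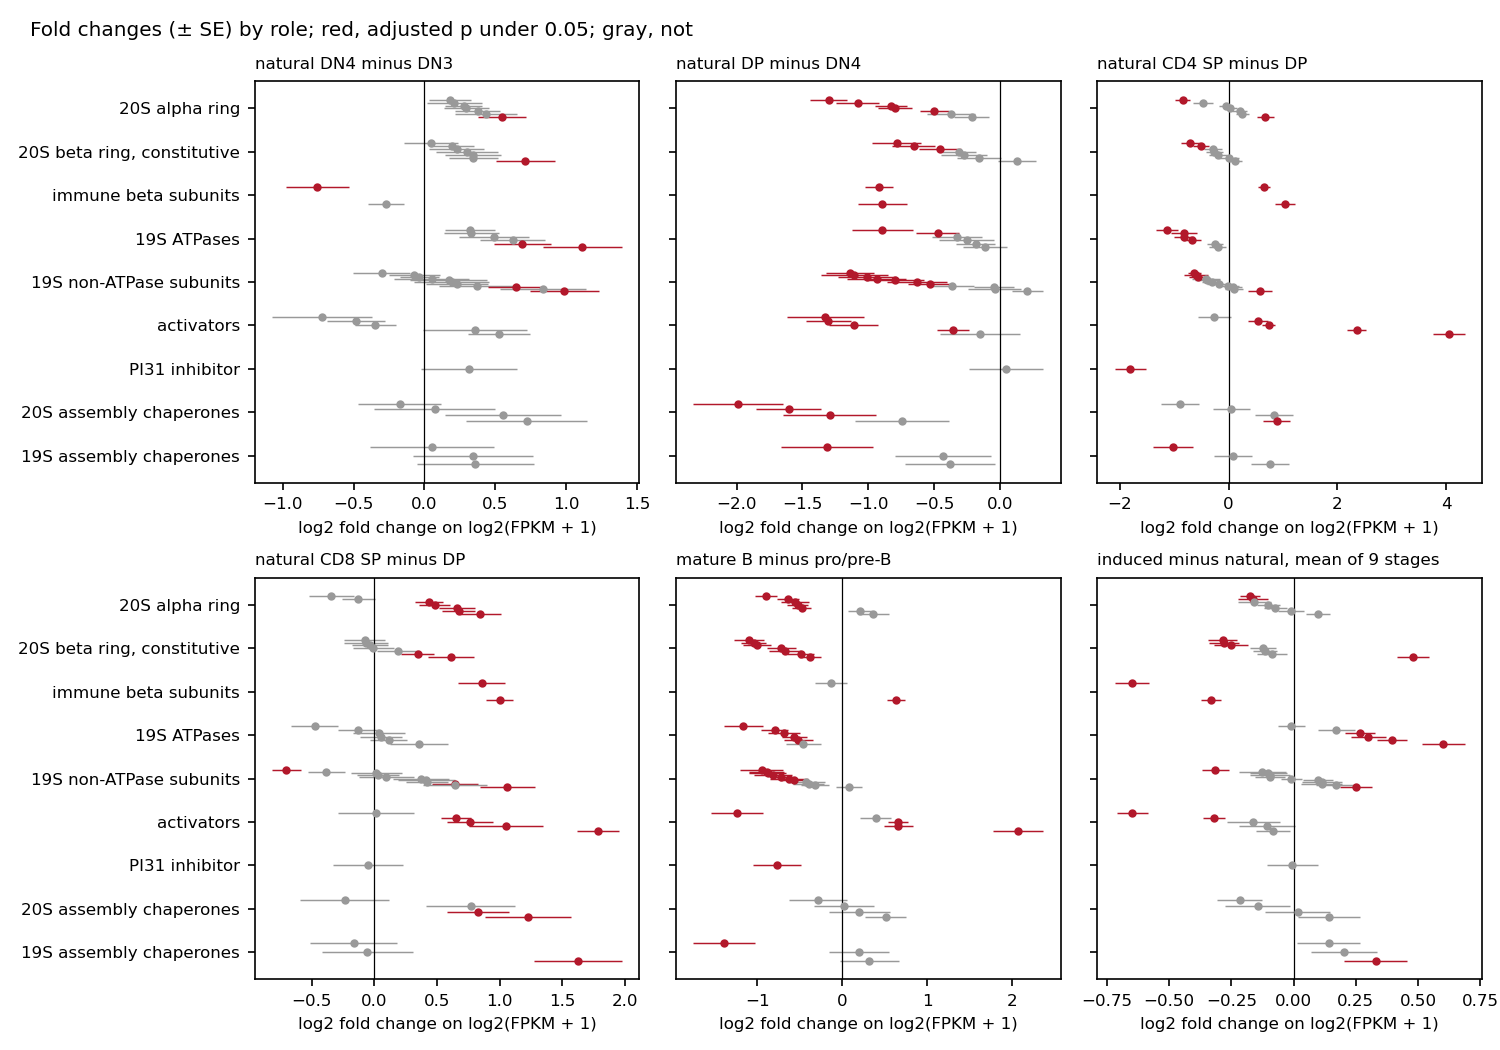
Differences in log2(FPKM + 1), with standard errors, of the proteasome genes by role in 6 comparisons, with called genes (limma, adjusted p under 0.05) in red and the others in gray; Psma8 and Psmc3ip are not drawn. In DP against DN4 the 27 called genes all lie below 0. In the mean of the 9 stages Psmb7 (0.48) is the 1 constitutive beta gene called above 0, while Psmb2, Psmb4 and Psmb5 are called below 0.

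By stage, the induced mean of Psmb10 was lower at 9 of 9 stages, with 5 calls and no overlap of libraries at 7. Psme2 was lower at 9 of 9, with 3 calls and no overlap at 7, and Psmb8 at 8 of 9, with 2 calls. Constitutive core genes had similar counts. Psma2 was lower at 8 of 9, with 3 calls and no overlap at 7, and was called higher at the remaining stage. Psmb4 was lower at 8 of 9, with 2 calls and no overlap at 6. Psmb7 was higher at 8 of 9, with 4 calls and no overlap at 6, and below the natural mean in thymic ETP. Psmc1 was higher at 8 of 9 with 4 calls, and Psmc2 at 8 of 9 with 3. How often the libraries of genes outside the members did not overlap at a stage was not counted. Within the libraries the ratio of Psmb10 to Psmb7 was below the natural range at 6 of 9 stages, that of Psmb8 to Psmb5 at 3 (BM ETP, DN1 and CD8 SP). At the other stages the ranges overlapped. There the induced mean of Psmb8 to Psmb5 was higher in thymic ETP (2.567 against 2.037), DN2 (2.298 against 1.991), DN3 (2.581 against 2.241) and DP (1.679 against 1.378). It was lower in DN4 and CD4 SP. The mean of Psmb10 to Psmb7 was higher in induced thymic ETP (2.285 against 1.903). For comparison with the source cells, pro/pre-B libraries had Psmb10 at 232, 193.5 and 204 FPKM and Psmb7 at 227, 210.2 and 213.

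**Figure D4:**
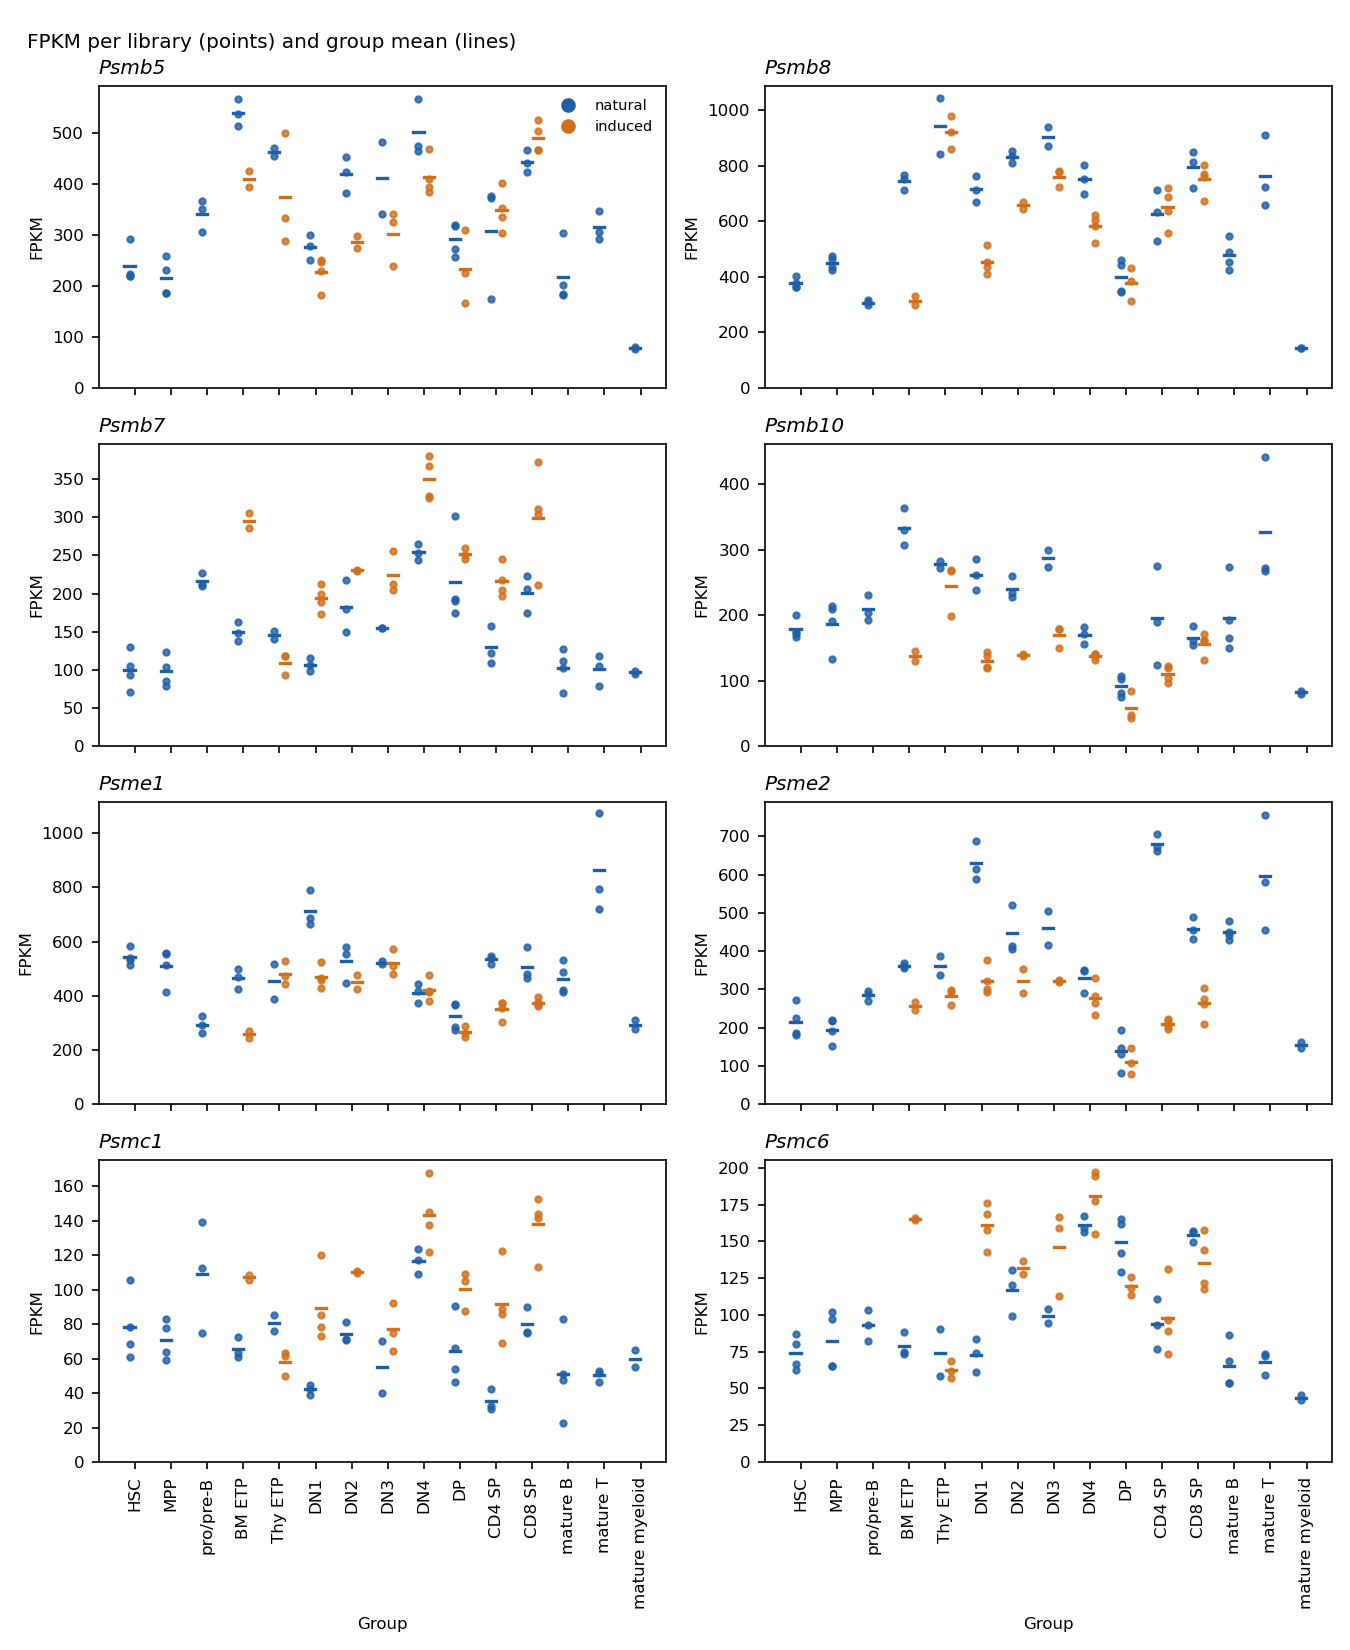
FPKM of 8 proteasome genes in each library, by group, with natural libraries in blue and induced libraries in orange. Psmb10 and Psme2 of induced libraries lie below the natural libraries of the same stage at 7 of 9 stages each, and Psmb7 lies above them at 6.

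Induced and natural BM ETP differed in 17 of 48 members, 9 higher and 8 lower (limma), where 31.1% of all genes and 45.9% of expressed genes were called. Psme4 stood at 12.1, 12.7 and 14.4 FPKM in natural and at 0.682 and 0.191 in induced BM ETP (-3.31 ± 0.37, limma adjusted p = 4.8e-11). With myeloid cells set aside, induced BM ETP was the lowest group for this gene. Psmb10 stood at 363, 308 and 331 against 129.98 and 145 FPKM (-1.27 ± 0.22) and Psmb8 at 753, 711 and 766 against 297 and 331 (-1.24 ± 0.13). Psmg1, a core chaperone, was lower by 1.42 ± 0.43, a call lost without induced replicate 2 (limma, adjusted p = 0.101). Psmc6 stood at 73.1, 88.1 and 75.0 against 166 and 164.5 FPKM (1.07 ± 0.20, limma adjusted p = 2.1e-05), and Psmb7 was higher by 0.98 ± 0.21 and the ATPase Psmc2 by 0.91 ± 0.19. The libraries of all 17, which were chosen by adjusted p in these same groups, did not overlap. The share of all genes without overlap was not taken. Pro/pre-B cells, the source, had Psmb8 at 297.5 to 315.5 FPKM and Psme4 at 29.6 to 49.0. These are the groups whose B lineage and myeloid markers differ as given above; natural killer and cytotoxic markers (737.3 to 784.6 FPKM summed in natural, 4.851 to 8.623 in induced), stem and progenitor markers (323.5 to 388.1 and 12.43 to 22.0) and dendritic markers (756.2 to 1164 and 339.3 to 372.1) differed too without overlap. Erythroid markers were at 2.59 to 12.82 and 33.17 to 63.2, and 12 of 16 proliferation genes were higher and 3 lower. Their part in the proteasome values was not tested. With quantile normalization 8 were higher and 11 lower.

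In DN1, 8 members were higher and 6 lower in induced cells (limma), where 18.8% of all genes and 28.4% of expressed genes were called, the last close to the 14 of 48 members. Psmb10 stood at 262, 285 and 238 FPKM in natural and at 143.5, 119, 120.5 and 138 in induced DN1 (-1.002 ± 0.19, limma adjusted p = 3.8e-05). Psme2 was lower by 0.97 ± 0.17, Psmb8 by 0.66 ± 0.11 and Psme1 by 0.61 ± 0.12, and the ATPases Psmc6 (1.14 ± 0.17) and Psmc1 (1.04 ± 0.23) were higher, with Psmb7 (0.85 ± 0.17). For Psmc6 the natural libraries stood at 74.0, 61.1 and 83.7 FPKM and the induced ones at 143, 176, 158 and 169. Class I and interferon genes were lower as well: H2-K1 at 1144 ± 122 FPKM in induced (n = 4) against 3528 ± 168 in natural DN1 (n = 3), and 6 of 12 class I genes and 5 of 16 interferon genes with no rise in either list. All 6 natural killer and cytotoxic markers and 6 of 7 dendritic markers were lower, myeloid markers summed to 26.92 to 224.8 FPKM in natural and 0 to 26.83 in induced and B lineage markers to 11.75 to 21.69 and 36.37 to 78.42, and their part in the result was not tested. Without natural DN1 replicates 1 and 2 and natural DN2 replicate 2, which leaves 1 natural DN1 library and was chosen after seeing the data, 5 of the 14 calls remained and the limma adjusted p of Psme1 and Psmc1 was 0.057 and 0.055. Scaling to an equal total gave 11 higher and 5 lower.

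In thymic ETP 5 members were lower and none higher (limma), where 8.27% of all genes and 13.2% of expressed genes were called: Psmc5 (-0.72 ± 0.23), Psma6 (-0.52 ± 0.16), Psmd8 (-0.51 ± 0.14), Psma5 (-0.49 ± 0.15) and Psma2 (-0.42 ± 0.13). The 16 proliferation genes gave 11 lower and none higher in the same comparison. Dendritic markers summed to 919.7 to 1600 FPKM in natural and 31.09 to 63.11 in induced thymic ETP. T lineage markers (2509 to 3056 and 1745 to 1779), natural killer and cytotoxic markers (518.7 to 634.2 and 739.6 to 838.6), B lineage markers (63.58 to 88.09 and 93.42 to 135) and stem and progenitor markers (29.02 to 33.36 and 55.72 to 61.47) did not overlap either, and their part in the result was not tested. No member was called after scaling to an equal total or without natural thymic ETP replicate 2, while 2 were called without natural replicate 1 and 1, Psmd13, which is not among the 5, without induced replicate 2. In DN3 4 members were lower and none higher, where 3.54% of all genes and 5.19% of expressed genes were called: Psmd3 (-0.80 ± 0.20), Psmb10 (-0.76 ± 0.22), Psmd4 (-0.65 ± 0.18) and Psmd8 (-0.63 ± 0.14). Without induced DN3 replicate 3 the count was 1 lower, without induced replicate 1 it was 2 lower, without natural replicate 1 it was 1 higher (Psmd11) and none lower, and without natural replicate 2 it was 1 higher (Psmc5) and 1 lower. Natural killer and cytotoxic markers summed to 79.98 to 86.59 FPKM in natural and 148.7 to 200.2 in induced DN3, and their part in the result was not tested. After scaling to an equal total, 1 member was higher and 1 lower, and the call of Psmb10 was lost when any 1 library of either group was left out (limma, adjusted p = 0.0603 to 0.19).

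In DN2 and DN4 limma called no member between sources, where 1.5% and 0.741% of all genes and 2.4% and 1.37% of expressed genes were called. At an unadjusted limma p under 0.05 there were 8 of 48 members in DN2 and 5 in DN4, against 1820 and 1359 of all 17416 genes. Without natural DN2 replicate 1 or 3, 1 member was called in DN2, Psma8, which 1 natural DN2 library holds. In DN2 Psmb10 stood at 228, 260.7 and 233 FPKM in natural and 140.5 and 137 in induced libraries (-0.79, limma adjusted p = 0.055), which did not overlap. In DN4 Psmc2 stood at 91.8, 86.8 and 71.9 against 113, 136, 123 and 127 FPKM (0.58, limma adjusted p = 0.083), again without overlap. All 48 differences in DN4 lay between -0.51 and 0.58.

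In DP, 7 members were lower and 1 higher in induced cells (limma), where 10.4% of all genes and 17.5% of expressed genes were called, the last near the 8 of 48 members. Psmb2, a constitutive beta subunit, stood at 399.9, 339, 466 and 462 FPKM in natural and at 199, 132 and 209.7 in induced DP, with no overlap (-1.22 ± 0.16, limma adjusted p = 1.2e-07). Psma3 was lower by 0.93 ± 0.18 and Psmb6 by 0.87 ± 0.14. Psme4 was higher, at 32.3, 33.2 and 25.2 against 15.6, 11.5, 6.38 and 10.7 FPKM (1.42 ± 0.31, limma adjusted p = 0.00085). T lineage markers summed to 6384 to 7406 FPKM in natural and 5302 to 6163 in induced DP and B lineage markers to 5.474 to 55.16 and 56.08 to 97.89, and their part in the result was not tested. With equal totals 3 were higher and 3 lower, and with quantile normalization 3 and 5.

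CD4 SP had the highest count of called members among the 9 stages, 17 higher and 6 lower of 48 in induced cells (limma). In this comparison 26.4% of all genes and 43.9% of expressed genes were called, the last near the 23 of 48 members. Psmf1 stood at 20.2, 9.46 and 15.5 FPKM in natural and at 93.2, 75.7, 61.0 and 57.9 in induced CD4 SP (2.22 ± 0.28, limma adjusted p = 6.1e-09). With mature myeloid cells (mean 12.71 FPKM) set aside, these were its lowest and highest groups. The cap carried 9 of the 17 higher members, among them Psmc1 (1.34 ± 0.23), Psmc4 (1.32 ± 0.21), Psmc5 (0.96 ± 0.19) and Psmd2 (0.81 ± 0.22). Psme2 stood at 672, 661.5 and 706 against 224, 218, 204 and 195.5 FPKM (-1.69 ± 0.17, limma adjusted p = 6.5e-12), and Psme2b (-2.44 ± 0.29), Psmb10 (-0.75 ± 0.19) and Psme1 (-0.61 ± 0.12) were lower too. Psmb8 was not called, with 529, 633 and 712 against 686, 559, 719 and 636 FPKM. Psmd9 (1.49 ± 0.36) and Psmc3ip (1.49 ± 0.28) were higher. Psmd9 lost its call without natural replicate 2 (limma, adjusted p = 0.0842). The higher values of Psmg2 and Psmg3 rest on natural replicate 2, without which limma gave adjusted p = 0.754 and 0.325.

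Other genes moved beside them in CD4 SP. Of 16 proliferation genes 15 were higher and none lower, of 12 class I genes 8 were lower and none higher, and of 16 interferon genes 9 were lower and none higher. Natural killer and cytotoxic markers summed to 223.3 to 352.3 FPKM in natural and 2.006 to 15.2 in induced libraries, and dendritic markers to 45.97 to 216.6 and 23.76 to 37.85. B lineage markers summed to 18.19 to 20.16 and 29.89 to 94.77 FPKM and the thymic stroma list to 26.84 to 68.76 and 135.1 to 201.4. Their part in the result was not tested. Scaling to equal totals moved the median expressed gene from 0.06 to 0.36 and gave 26 higher and 2 lower members, with Psmb10 and Psme1 no longer called (limma, adjusted p = 0.0857 and 0.104). Psmb10 also lost its call without natural CD4 SP replicate 3 (limma, adjusted p = 0.074), as did Psmd2 (0.0749).

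In CD8 SP 6 members were higher and 2 lower in induced cells (limma), where 10.6% of all genes and 19.8% of expressed genes were called. Psmc5 (0.93 ± 0.19), Psmd2 (0.90 ± 0.22), Psmc2 (0.77 ± 0.16) and Psmc1 (0.77 ± 0.23) were higher. Psmc2 stood at 53.7, 47.7 and 63.1 FPKM in natural and at 96.2, 92.7, 81.5 and 106 in induced CD8 SP. Psme2 was lower at 276, 305, 262 and 209.5 against 488, 432 and 454.5 FPKM (-0.81 ± 0.17, limma adjusted p = 0.00041), with Psme1 (-0.43 ± 0.12). Natural killer and cytotoxic markers summed to 349.4 to 468.1 FPKM in natural and 5.542 to 16.06 in induced CD8 SP and dendritic markers to 52.45 to 353.4 and 22.84 to 41.94, and their part in the result was not tested. Without natural CD8 SP replicate 2 there were 4 calls, with Psme1, Psmd2, Psmc1 and Psmb7 lost (limma, adjusted p = 0.144, 0.0703, 0.0852 and 0.0675), and with quantile normalization 3 higher and 4 lower.

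The difference between sources was then tested for the steps themselves. For DN4 to DP, limma called no member, where 1.1% of all genes and 1.29% of expressed genes were called. At an unadjusted limma p under 0.05 there were 9 of 48 members and 1870 of all 17416 genes. Psmb6 was called without natural DN4 replicate 1 or induced DP replicate 1, and with all libraries it was the nearest to the threshold (-0.67, limma adjusted p = 0.095). For DP to CD4 SP, 13 members had a higher and 2 a lower induced step, where 17.3% of all genes and 31.3% of expressed genes were called, the last about the share of members (15 of 48). Psmf1 led with 2.78 ± 0.40, and Psmc4 (1.52 ± 0.29), Psmc5 (1.33 ± 0.27), Psmb2 (1.32 ± 0.23) and Psmb6 (1.06 ± 0.20) followed. Psmc3ip, the gene outside the proteasome, differed by 2.22 ± 0.40. Psme2b (-2.65 ± 0.42) and Psme2 (-1.40 ± 0.24) rose less in induced cells (limma, adjusted p = 2e-06 and 1.2e-05). For DP to CD8 SP 7 members had a higher induced step and none a lower one, where 7.34% of all genes and 13.4% of expressed genes were called: Psmb2 (1.47 ± 0.23), Psmc5 (1.30 ± 0.27), Psma3 (1.26 ± 0.26), Psmd2 (1.17 ± 0.31), Psmb6 (0.84 ± 0.20), Psmd3 (0.74 ± 0.24) and Psmd8 (0.68 ± 0.16). All 7 except Psmb2, Psmc5 and Psma3 lost the call with equal totals or quantile normalization. Psmd2 also lost it without induced DP replicate 2 or natural CD8 SP replicate 2 (limma, adjusted p = 0.109 and 0.0632), and Psmd3 without any 1 of 11 libraries (0.0509 to 0.154). Equal totals gave 3 higher and 1 lower, and quantile normalization 3 and 2. The CD4 and CD8 steps share their DP libraries in each source.

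Genes that work with the proteasome but fall outside the name rule were called in both directions. Of 18 tested partners, 6 fell and 4 rose from DN4 to DP, with a median of -0.10, where 24.6% of all and 44.3% of expressed genes were called. Ecpas, which binds and holds the assembled proteasome, fell by 1.75 and Txnl1, a redox protein of the cap, by 1.145, while Nfe2l2 (1.04) and Akirin2 (0.78), which brings proteasomes into the nucleus, rose. In CD4 SP against DP, 2 partners rose and 3 fell, where 26.7% of all and 43.3% of expressed genes were called. In induced against natural BM ETP, 5 were higher and 1 lower, where 31.1% of all and 45.9% of expressed genes were called. Akirin2 was at 2.03 and Nfe2l1, the factor that restores proteasome genes after inhibition, at -1.48. No member whose call is counted in any comparison changed direction in any alternative processing that was run.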

How the data were processed

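RNA of 76 libraries was analysed as deposited by the authors in FPKM, 1 row per Ensembl gene. Per the submitters' processing notes, bcl2fastq, TopHat, Cufflinks 2.2.1, Cuffnorm and the mouse build NCBIM37 were used; roles, parameters and annotation version are not given in the sources used here. Libraries were made by low-input cDNA synthesis and tagmentation, per the labels' protocols. Read counts were not used here. Symbols came from GENCODE vM21 and matched 32916 of 37980 IDs (86.7%). Replicate 3 of pro/pre-B cells, identical to replicate 1 in all 37980 genes, was left out.

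Values were transformed as log2(FPKM + 1), so that differences of low genes are understated. Genes below 1 FPKM in all but 1 library or in every library were dropped, and the other 17416 were fitted with limma 3.58.1 in R 4.3.3 (1 mean per group over 75 libraries, 51 residual degrees of freedom, empirical Bayes with trend and robust settings). The test was two-sided, and p was adjusted by Benjamini-Hochberg over all genes within each of 19 comparisons, with a threshold of 0.05. Called, rose, fell, higher and lower refer to it. Errors of differences are standard errors of that fit, and errors of levels are SD. The fit was tested on simulated data. Low values of single-transcript genes of at least 1000 bases placed the depth: 71.6% to 93.1% of them lay within 0.2 of a whole number of fragments. Where a group is left with 1 library, that library is assumed to vary like the others. The remaining steps ran in Python 3.11.15 (pandas 2.3.3, numpy 2.4.6); scipy was 1.17.1 and matplotlib 3.10.9.

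The members, the gene lists and the tests were chosen with earlier results of these data known. Any member could be named; values were given for the immune, thymic and catalytic subunits, Psme1, Psme2 and, per comparison, the 3 highest and 3 lowest called members, and other members named beside these were chosen after their values were seen. For other lists, the 3 largest called changes were the rule, and other examples were chosen after their values were seen. Alternatives were a pseudocount of 0.1, no filter, equal totals, quantile normalization, library weights, a block for the replicate number, a fit of only the groups compared, and each library left out in turn. Some genes of the other lists are not reported here by name. Leaving out natural DN1 replicates 1 and 2 and natural DN2 replicate 2 was added after seeing the data.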

Additional observations from a re-analysis of the deposited data

Results flagged for a closer look

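In groups of 4 libraries, 98 sets of values of 13 members were examined for a library far from the others, and 4 were found, where chance gives about 1 in 20. Psmb5 was at 293.1 FPKM in HSC replicate 3 and at 219.7 to 223.8 in the other HSC libraries. Psmb7 was at 302.0 FPKM in natural DP replicate 1 against 174.3 to 192.9. Psma8 was at 2.727 FPKM in MPP replicate 1 against 5.95 to 6.241. Psme4 was at 21.92 FPKM in mature B replicate 1 against 14.34 to 14.78.

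The step from DP to CD4 SP differed between sources in 15 members by the limma interaction test, given as induced minus natural step on the log2 scale. The induced step was higher for Psmf1 (2.78), Psmc3ip (2.22), Psmc4 (1.52), Psmc5 (1.33), Psmb2 (1.32), Psmd2 (1.08), Psmb6 (1.06), Psmd3 (0.95), Psma3 (0.85), Psmb4 (0.80), Psma6 (0.79), Psmd8 (0.67) and Psma5 (0.48). It was lower for Psme2b (-2.65) and Psme2 (-1.40). The step from DP to CD8 SP differed in 7 members: Psmb2 (1.47), Psmc5 (1.30), Psma3 (1.26), Psmd2 (1.17), Psmb6 (0.84), Psmd3 (0.74) and Psmd8 (0.68). Both steps use the same DP libraries.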

How the results depend on the processing

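Over the 19 comparisons there were 226 calls of members. Of these, 110 held in every alternative, and none changed direction. Leaving out a single library ended 79, the fit of only the groups compared 73, equal totals 36, library weights 25, quantile normalization 23, no filter 4 and a pseudocount of 0.1 ended 1.

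Counts that moved by more than 1.5 times were as follows. Equal totals gave 0 members in thymic ETP, 2 in DN3 and 4 for the step to CD8 SP. Library weights gave 10 in thymic ETP, 1 in DN2, 2 in DN3, 5 in DN4, 14 in CD8 SP, 2 for MPP against HSC, 3 for DN4 against DN3 and 14 for CD4 SP against DP. A fit of only the groups compared gave 2 in thymic ETP, 0 in DN3, 6 in DN4, 2 in DP, 13 in CD8 SP, 3 for DN4 against DN3, 9 for CD4 SP against DP, 10 for CD8 SP against DP, 9 for the step to CD4 SP and 4 for the step to CD8 SP. A pseudocount of 0.1 gave 0 for MPP against HSC. Without natural DN1 replicates 1 and 2 and natural DN2 replicate 2, chosen after seeing the data, DN1 gave 5. The cause was not tested.

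The labels give the same replicate numbers in several groups. Between induced and natural groups of a stage, deviations of same-numbered libraries from their group means correlated between -0.040 and 0.054. Pairing between groups of the same source was not examined. With 2 or 3 pairs in a comparison, such values cannot exclude a pairing. With the replicate number as a block, thymic ETP gave 8 members and DN2 1, and 4 of 194 calls were lost. The block was not run for mature B cells, whose numbers are in accession order.

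Leaving out each library gave 12 to 16 members in BM ETP, 0 to 4 in thymic ETP, 10 to 14 in DN1, 0 to 1 in DN2, 1 to 3 in DN3, 0 to 0 in DN4, 6 to 9 in DP, 17 to 22 in CD4 SP, 4 to 9 in CD8 SP and 15 to 23 on average. It gave 1 to 2 for MPP, 1 to 4 for DN4 against DN3, 22 to 28 for DP, 19 to 23 for CD4 SP and 17 to 22 for CD8 SP against DP, 28 to 32 for mature B cells, and 0 to 1, 13 to 17 and 5 to 8 for the steps to DP, CD4 SP and CD8 SP.

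Equal totals moved the median expressed gene by -0.32 to 0.30 (over 0.1 in 8 comparisons) and quantile normalization by -0.26 to 0.19 (4 comparisons). At this depth, members near 1 FPKM, such as Psma8 in natural BM ETP (at most 0.898 FPKM), cannot be told from 0. The natural DN2 library with Psma8 at 7.15 FPKM is not among these.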

Other observations

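Heat shock genes, which hold and refold proteins upstream of degradation, changed at the same thymic steps. Of 10 tested, 6 fell and 1 rose from DN4 to DP, with a median of -1.27 on the log2 scale. From DP to CD8 SP 7 rose and 1 fell (median 1.34), and from DP to CD4 SP 4 rose and 1 fell (median 0.39). In induced against natural DN1 7 were higher and none lower (median 0.72). The shares of expressed genes called in these comparisons were 44.3%, 40.9%, 43.3% and 28.4%, in the order given.

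Genes of ubiquitin and its activation were called in both directions. From DN4 to DP, Rps27a (-0.82) and Uba1 (-0.65) fell and Ubb (0.69) rose. From DP to CD8 SP, Ubb (-1.04), a polyubiquitin gene, fell, while Rps27a (0.57), a ubiquitin fusion with a ribosomal protein, and Uba1 (0.55), the activating enzyme, rose. From DP to CD4 SP, Ubb fell by 0.53 and Rps27a rose by 0.90.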
